A study of Mus musculus with 8 samples.

Results

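The genes described here are the cyclins, the cyclin-dependent kinases (CDKs), the CDK inhibitors, the CDC25 phosphatases and Wee1, the retinoblastoma family of pocket proteins and the E2F transcription factors. They were taken by symbol from the gene names that the array design gives its probes, and Cdkn1a and Ccng1, which fit the same rule, were left out of the group. That gave 60 genes among the 37074 gene names on the array, carried by 139 probes. Of these, 115 probes of 57 genes had at least 3 of 4 values in each group and were tested. The other 24 probes had too few values, and among them were all probes of Cdkn2a, Ccna1 and Ccnb3, so these 3 genes have no result. Levels were measured with one-colour Agilent arrays in proliferating C2C12 cells, an established mouse myoblast line. The study compared 4 cultures transfected with LNA GapmeRs against Pvt1, a long non-coding RNA, with 4 cultures transfected with negative control GapmeRs, so both groups had received Lipofectamine 2000 and an oligonucleotide. The labels call the cultures biological replicates 1 to 4 of each group, all of 1 cell line. Per the methods, the cells were seeded at high density in Opti-MEM with serum for the transfection and lysed once that medium was taken off.

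A GapmeR is a short antisense oligonucleotide with locked ends that pairs with an RNA and lets RNase H cut it. The labels name a pair of them for Pvt1, each of 16 bases, printed here because every difference below is between cells that did and did not receive them. They do not say whether each silenced culture received both.
Pvt1_1: accgtagtagagttaa
Pvt1_3: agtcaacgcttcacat

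The cell cycle is driven by CDKs, which are inactive until a cyclin binds them. D-type cyclins with Cdk4 and Cdk6 start the phosphorylation of the retinoblastoma protein and its relatives early in G1, and cyclin E with Cdk2 continues it, which frees E2F factors to switch on genes for DNA synthesis. Cyclin A then works with Cdk2 and Cdk1 through S and G2 phase, and cyclin B with Cdk1 brings the cell into mitosis. Inhibitors of the INK4 and Cip/Kip families hold the kinases back. In myoblasts this machinery is what must stop before fusion into muscle fibres, and the pocket proteins keep the arrested state. Other members of the same families work in transcription. Cdk7, Cdk8, Cdk9, Cdk12, Cdk13 and Cdk19 with cyclins C, H, K and T act on RNA polymerase II, and cyclins L act in splicing. Cdk7 with cyclin H has both roles, since it also activates the CDKs of the cycle.

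Many genes of the cycle are switched through short elements just upstream of their start. The windows below hold the 150 bases before the start of 6 members, from RefSeq on build GRCm38.p6 and read 5′ to 3′ on the strand of the gene. They are shown because cyclin B1, cyclin B2 and Cdk1 act together in mitosis while only the first had probes that passed the test, and because Cdc25b, E2f3 and Rbl1 each had a probe that fell. Capitals mark exact matches, on the strand shown or its complement, to an E2F element (TTTCCCGC, TTTGGCGC or TTTCGCGC), to a cell cycle homology region (CHR, TTTGAA) or to a CCAAT box (CCAAT). No matches overlapped in these windows.
Ccnb1 (chr13:100786487-100786636, minus strand): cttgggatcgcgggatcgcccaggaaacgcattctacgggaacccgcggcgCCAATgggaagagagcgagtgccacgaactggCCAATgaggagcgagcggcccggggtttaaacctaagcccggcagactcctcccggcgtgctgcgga
Ccnb2 (chr9:70421555-70421704, minus strand): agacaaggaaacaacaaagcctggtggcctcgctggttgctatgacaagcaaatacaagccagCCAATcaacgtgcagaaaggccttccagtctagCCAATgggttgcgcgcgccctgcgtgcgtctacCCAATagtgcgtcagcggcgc
Cdk1 (chr10:69352913-69353062, minus strand): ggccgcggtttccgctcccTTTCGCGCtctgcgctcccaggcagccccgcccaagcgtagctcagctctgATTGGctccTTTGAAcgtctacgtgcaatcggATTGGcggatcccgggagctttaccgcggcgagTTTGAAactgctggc
Cdc25b (chr2:131186798-131186947, plus strand): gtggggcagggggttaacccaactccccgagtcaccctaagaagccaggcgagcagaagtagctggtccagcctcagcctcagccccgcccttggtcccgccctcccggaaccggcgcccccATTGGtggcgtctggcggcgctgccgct
E2f3 (chr13:29986064-29986213, minus strand): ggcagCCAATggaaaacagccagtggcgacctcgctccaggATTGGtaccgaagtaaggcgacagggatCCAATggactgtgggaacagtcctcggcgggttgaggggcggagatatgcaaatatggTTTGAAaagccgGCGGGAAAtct
Rbl1 (chr2:157204535-157204684, minus strand): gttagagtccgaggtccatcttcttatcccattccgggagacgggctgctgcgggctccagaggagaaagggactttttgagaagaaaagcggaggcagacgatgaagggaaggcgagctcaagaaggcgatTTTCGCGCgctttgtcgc
The Ccnb1 window held CCAAT boxes 99 and 67 bases before the start, and that of Ccnb2 held 3 of them at 87, 54 and 21 bases. In the Cdk1 window there were CCAAT boxes at 80 and 48 bases, a CHR at 71 and another at 15, and an E2F element at 131. Cdc25b showed a single CCAAT box at 28 bases and Rbl1 a single E2F element at 18. E2f3, whose table lists 2 starts and of which the first is shown, held all 3 kinds. Promoters were listed for 46 of the 60 genes. At least 1 E2F element lay in 11.5% of the 52 member promoters and in 1.02% of all 32851 promoters over the same window, a CHR in 13.5% and 9.07%, and a CCAAT box in 42.3% and 24.5%. Of the 17 genes with a listed promoter and a probe called lower, 7 held a CCAAT box, 2 a CHR and 2 an E2F element. Among the 26 with no called probe the numbers were 14, 5 and 4. A match of letters is a description of the window and shows no binding.

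Spots that were positive and significant, meaning above local background, made up 58.8% to 62.5% of each control array and 51.6% to 61% of each silenced array, with silenced replicate 4 the dimmest. Control replicate 3 had the lowest mean correlation with its group (0.964, against at least 0.978 for the other 7 arrays). Pvt1 itself had log2 signals of 9.65, 9.79, 10.31 and 9.70 on the control arrays and 7.09, 6.69, 7.85 and 6.39 on the silenced arrays for its brightest probe (chromosome 15, 62081020 to 62081079, build mm9, as for all positions below except promoters), and all silenced arrays lay below all controls. The change was -2.86 (SE 0.32, limma adjusted p 0.000682). Of 7 myoblast markers, 6 were well above background on all 8 arrays, among them Myod1, Des and Cdh15, which all fell (-1.95, -1.35 and -0.86). Chrna1, Megf10 and Pax7 changed by -0.30, -0.29 and 0.02 and were not called, and Myf5 was well above background on no array. Markers of other cell types also moved with the groups. The summed signal of 8 liver genes lay between 878 and 1708 in controls and between 4513 and 5650 after silencing, and Alb, Mup1, Serpina1a and Fgb stood clearly over background on all 4 silenced arrays but on none of the controls. Of the other 4, Ttr was well above background on 3 silenced arrays and no control, Cyp2e1 rose by 1.14, Apoa1 was well above background on none, and Apoa2, the brightest of the list in controls and well above background on all 8 arrays, changed by -0.15 and was not called. For 5 macrophage genes the sums lay between 1752 and 1875 in controls and between 3884 and 6752 after silencing, with Cd68 called higher, Csf1r called lower, Ptprc not called (1.26) and Adgre1 and Lyz2 well above background on no array. Genes of differentiating muscle summed to between 3080 and 4109 in controls and between 1320 and 1826 after silencing. Of the 5 tested genes of that list Acta1, the brightest, and Mybph fell, while Tnnt3, Myh3 and Myog changed by -0.26, -0.58 and 0.13 and were not called. The 4 endothelial genes, with sums of 68 to 95 and 67 to 100, had no array well above background. The part of these transcripts in the results below was not tested. In RNA from whole cultures, fewer cells of a kind and less RNA per cell cannot be told apart.

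Most cell cycle genes that changed were lower after silencing. A probe is called here when its adjusted p was under 0.05, with adjustment over all 28649 probes tested, and a change is the mean log2 signal of the silenced arrays minus that of the controls. Of the 115 tested probes 35 were called (30.4%), while 23.2% of all tested probes were. Called lower were 30 probes (26.1%), against 18.4% of all probes, and called higher were 5 (4.35%), against 4.79%. With each gene represented by its probe of highest mean signal, 15 of 57 genes were lower (26.3%), against 14.0% of the 19360 genes tested, and 4 were higher (7.02%), against 5.99%. The values of the groups did not overlap, with silenced arrays below, for 37 member probes (32.2%), against 22.6% of all probes, and with silenced arrays above for 9 (7.83%), against 5.61%. The share lower among the members was thus above that of the array in each of these counts, and the share higher was close to it. The median change was -0.27 over the 57 genes and -0.09 over all genes, and -0.30 over the member probes and -0.19 over all probes. No test was made on the list as a whole. For each group of genes by role below, the counts by brightest probe stand against the same 14.0% lower and 5.99% higher of all genes.

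The balance of directions depended on the processing and on the arrays used. Of the called member probes 85.7% were lower, against 79.3% of all called probes. Scaling by a 75th percentile shift gave 81.8% (8 higher, 36 lower) and 76.1%. With cyclic loess these shares were 66.7% (16 higher, 32 lower) and 49.3%, with the series table that the authors deposited 59% (16 and 23) and 49.7%, with no masking of dim spots 60% (16 and 24) and 49%, and without silenced replicate 4 they were 72.1% (12 and 31) and 59.7%. Other alternatives raised the members' share, to 94.4% with the row of the slide as a block (82.8% of all called probes), 90.7% without control replicate 3 (77.2%) and 100% of 15 probes without control replicate 2 (81.6%). Cyclic loess moved the median change of all probes from -0.19 to 0.02. With the median of -0.19 subtracted from each change, the 30 lower calls lay between -2.09 and -0.44 and the 5 higher calls between 0.83 and 1.40. None of the 35 called probes changed direction under any alternative in which it could be tested. The calls themselves moved more. Leaving out control replicate 2, control replicate 4 or silenced replicate 1 reduced the called probes from 35 to 15, 17 and 21 of the 115 tested. The row of the slide as a block gave 18 of 115. In the same 4 fits 13%, 12.8%, 16.1% and 10.8% of all tested probes were called, against 23.2% in the main fit. The row block ended 18 of the 35 calls, which are named with their genes below. Single arrays ended 20 of the 35 calls, and each of those 20 ended without control replicate 2. The controls lay mostly in 1 row of the slide and the silenced arrays mostly in the other. Within the row with 3 control arrays and 1 silenced array the median change of the member genes was -0.13 (all genes 0.06), and within the row with 1 control and 3 silenced arrays it was -0.55 (all genes -0.19). The methods' t-test with Benjamini-Hochberg adjustment ended 19 of the 35 calls, among them those of Rbl2 and E2f4. A set of 11 probes lost their call under none of the alternatives in which they could be tested other than the Bonferroni threshold, under which no member probe passed: Ccnd2 probe 3, Ccnb1 probes 2 and 3, Cdc25b probe 1, E2f3 probe 1, Ccnl1 probes 2 and 4, Ccnt1 probe 2, Cdk9 probe 2, Cdk10 probe 2 and Cdk16 probe 1. Of these, Cdc25b probe 1 has no value on control replicate 3 and could not be tested among probes with all 8 values. Probes of a gene are numbered by their mean signal over the 8 arrays, from 1 for the brightest. For Ccnl2, Cdkn2b, Cdk14, Cdk15 and E2f6, number 1 is a probe without a value on any array, and probe 2 is the brightest with values.

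**Figure D1:**
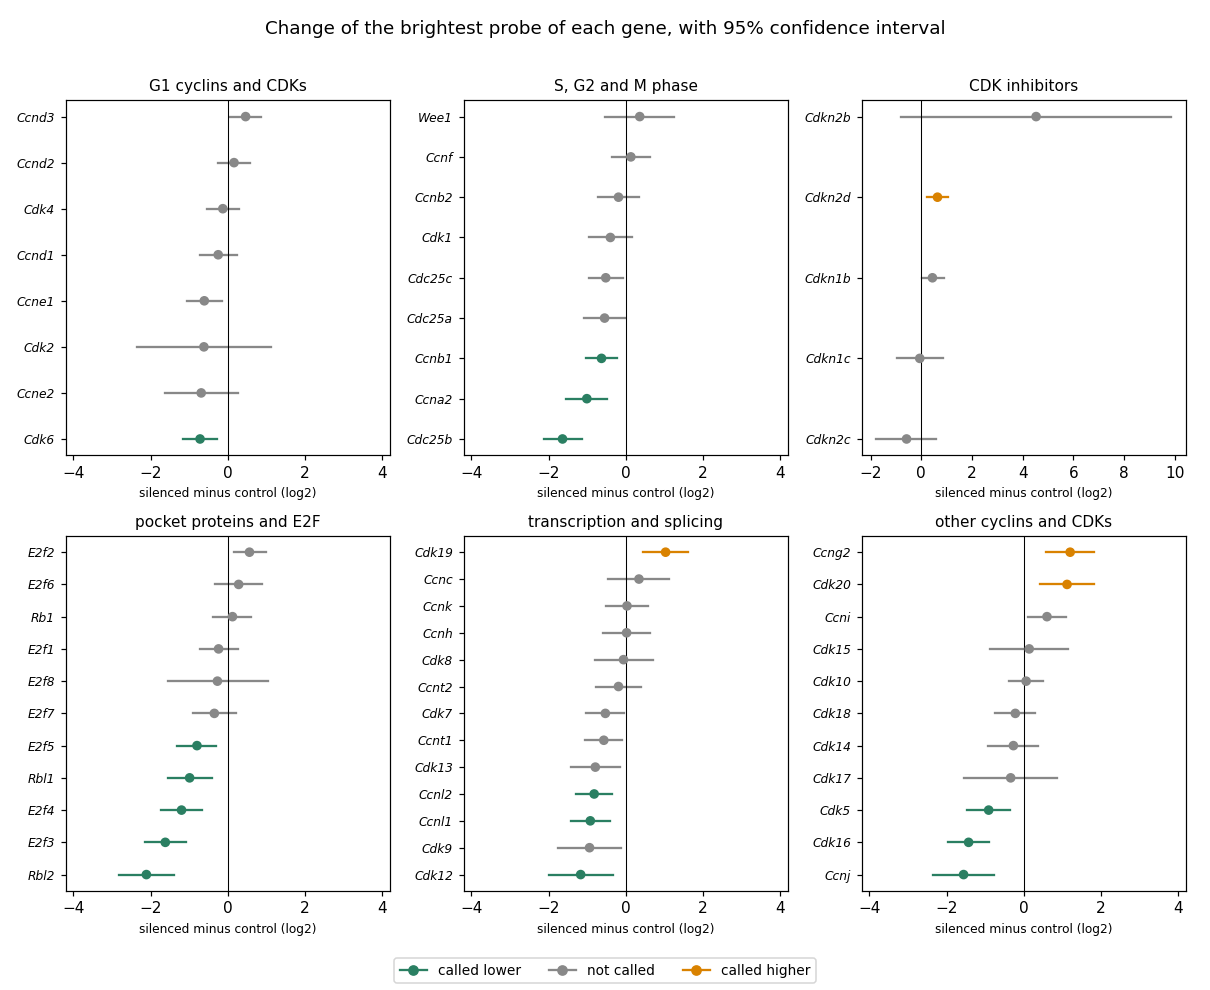
Change after Pvt1 silencing (silenced minus control, log2, horizontal axis) of the brightest tested probe of 57 genes, by role; points are fitted changes and lines 95% confidence intervals, coloured by call, and the axis of the inhibitor panel is wider than the others. Green points, the 15 genes called lower, appear in every panel but that of the inhibitors, and the interval of Cdkn2b spans -0.80 to 9.86.

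Among the genes of G1 phase, Cdk6 fell and a single probe each of Ccnd2 and Cdk4 fell, while most of the group did not pass the test. By brightest probe 1 of 8 genes was lower and none higher (median change -0.43, and -0.43 to -0.18 over the scalings tried). Here and below the scalings include the alternative background correction, maskings and source of values. Cyclin D1, the D-type cyclin best known as a target of growth factor signals, had log2 signals of 14.65, 14.76, 14.27 and 14.80 on the control arrays and 14.41, 14.68, 14.07 and 14.33 on the silenced arrays. The groups overlapped and the change was -0.25 (SE 0.22, limma adjusted p 0.446). The probes of cyclin D2 differed. Its brightest probe (chromosome 6, 127080268 to 127080327) read 13.46, 13.51, 13.77 and 13.55 on the control arrays and 13.80, 13.83, 13.75 and 13.55 on the silenced arrays, a change of 0.16 (SE 0.18, limma adjusted p 0.571). Probe 3 (chromosome 6, 127098696 to 127098755), which lies nearer the 5′ end of the gene, read 12.17, 12.20, 12.10 and 12.23 on the control arrays and 11.26, 11.39, 10.94 and 11.07 on the silenced arrays. Every silenced array lay below every control on that probe, and the change was -1.01 (SE 0.18, limma adjusted p 0.00504), to a level 2.01-fold lower. Cyclin D3, the D-type cyclin kept on during muscle differentiation, read 13.67, 13.80, 13.93 and 13.75 on the control arrays and 14.44, 14.21, 14.27 and 14.07 on the silenced arrays on its brightest probe. All 4 silenced arrays lay above all controls, but the change of 0.46 (SE 0.18, limma adjusted p 0.0974) was not called, and its other probes, also without overlap, gave 0.48 and 0.61. It was called under cyclic loess (0.69), without silenced replicate 4 (0.52) and with the authors' table (0.62).

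Cdk4, the main D-cyclin partner in proliferating myoblasts, had 4 tested probes. The brightest read 14.99, 15.06, 15.12 and 15.12 on the control arrays and 15.10, 15.11, 14.86 and 14.67 on the silenced arrays, with a change of -0.13 (SE 0.19, limma adjusted p 0.654). Probe 4 (chromosome 10, 126503162 to 126503221), the one farthest towards the 5′ end, read 14.27, 14.63, 13.84 and 14.67 on the control arrays and 13.47, 13.90, 12.93 and 13.36 on the silenced arrays. It fell by 0.94 (SE 0.27, limma adjusted p 0.034), although the highest silenced value lay above the lowest control. Cdk6 (probe 1, chromosome 5, 3529287 to 3529346) read 13.11, 13.35, 13.55 and 13.26 on the control arrays and 12.62, 12.59, 12.81 and 12.35 on the silenced arrays. No silenced value reached a control and the change was -0.72 (SE 0.20, limma adjusted p 0.0258). Its probes 2 and 3 changed by 0.31 and -1.23 and were not called, nor were Cdk4 probes 2 and 3 (-0.13 and -0.49) or Ccnd2 probe 2 (0.06). Cyclin E1 read 12.89, 13.34, 13.56 and 13.22 on the control arrays and 12.58, 12.74, 12.68 and 12.56 on the silenced arrays, again without overlap. Its change of -0.61 (SE 0.20, limma adjusted p 0.0556) lay outside the threshold and was called without control replicate 1 (-0.74). Cyclin E2 was dim, with values of 6.44, 6.97, 5.21 and 6.65 on the control arrays and 5.30, 5.90, 6.34 and 4.95 on the silenced arrays and overlap between the groups, and changed by -0.69 (SE 0.42, limma adjusted p 0.268). Cdk2, the partner of cyclin E, read 10.99, 11.26, 7.33 and 11.13 on the control arrays and 9.58, 10.01, 9.06 and 9.58 on the silenced arrays. Control replicate 3 was far below the other controls here, and the change of -0.62 (SE 0.78, limma adjusted p 0.614) became -1.55 and was called without that array, as did those of cyclin E2 (-1.06) and, in the next group, Cdk1 (-0.62). With 1 array left out at a time, calls were lost for Cdk4 probe 4 without control 1, 2, 4 and silenced 1, 3 (-1.12 to -0.79) and Cdk6 probe 1 without control 2, 4 and silenced 1, 2 (-0.80 to -0.64), where the numbers after the group are the replicates whose absence ended the call and the range in parentheses is that of the change over all 8 such fits. The row of the slide as a block ended the same 2 calls (-1.03 and -0.69), so that 0 of the 8 genes were then called by brightest probe. Cdk4 probe 4 was also not called with the authors' table (-0.78) or without masking of dim spots (-0.75).

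In the group that acts from S phase to mitosis, cyclin A2, cyclin B1 and Cdc25b fell, while cyclin B2 and Cdk1, with which cyclin B1 works, did not pass the test. Whether the changes of these 3 genes differed was not tested. By brightest probe 3 of 9 tested genes were lower and none higher (median -0.52, and -0.57 to -0.35 over the scalings). Cyclin A2, the S and G2 phase cyclin, read 14.10, 14.32, 13.93 and 14.28 on the control arrays and 13.18, 13.55, 13.23 and 12.62 on the silenced arrays on probe 1 (chromosome 3, 36463978 to 36464037). All silenced arrays were below all controls, with the lowest value on silenced replicate 4, and the change was -1.01 (SE 0.24, limma adjusted p 0.0141). Its other probe (chromosome 3, 36464929 to 36464988) read 12.38, 12.43, 12.65 and 12.45 on the control arrays and 12.71, 12.44, 13.03 and 11.87 on the silenced arrays and changed by 0.03. The probe that fell was the one nearer the 3′ end.

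Cyclin B1, whose binding to Cdk1 starts mitosis, had 4 probes, of which 3 fell. Probe 1 (chromosome 13, 101548722 to 101548781) read 13.61, 13.70, 13.55 and 13.80 on the control arrays and 13.06, 13.08, 13.14 and 12.86 on the silenced arrays. It fell by 0.63 (SE 0.18, limma adjusted p 0.0311). Probe 2 (chromosome 13, 101551224 to 101551283) read 12.03, 12.31, 12.16 and 12.34 on the control arrays and 10.75, 11.01, 10.26 and 10.59 on the silenced arrays, a change of -1.56 (SE 0.22, limma adjusted p 0.0015). On probe 3 (chromosome 13, 101553449 to 101553508) the values were 11.18, 11.52, 11.20 and 11.37 on the control arrays and 9.61, 10.01, 9.46 and 9.20 on the silenced arrays, a change of -1.75 (SE 0.22, limma adjusted p 0.00108) or 3.36-fold lower. The groups did not overlap on any of these. Probe 4, which overlaps probe 1 and holds a polyadenylation signal (AATAAA or ATTAAA), read 9.82, 9.96, 10.09 and 9.80 on the control arrays and 9.96, 9.76, 9.93 and 9.06 on the silenced arrays and changed by -0.24 (SE 0.24, limma adjusted p 0.514), with overlap. Cyclin B2 (a single probe) read 13.45, 13.66, 14.02 and 13.78 on the control arrays and 13.64, 13.67, 13.84 and 13.01 on the silenced arrays, with the silenced values other than that of replicate 4 inside the range of the controls. Its change was -0.19 (SE 0.24, limma adjusted p 0.614), with a 95% interval of -0.72 to 0.34. Cdk1 read 13.23, 13.38, 12.47 and 13.44 on the control arrays and 12.89, 12.80, 12.67 and 12.56 on the silenced arrays. The interval of its change of -0.40 ran from -0.95 to 0.16, so a fall of the size seen on the brightest cyclin B1 probe lay within it.

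The CDC25 phosphatases remove the inhibitory phosphates that Wee1 places on CDKs. Cdc25b probe 1 (chromosome 2, 131023376 to 131023435) read 11.84, 12.15 and 12.03 on the control arrays (no value on replicate 3) and 10.38, 10.64, 10.17 and 10.28 on the silenced arrays. The silenced values lay more than 1 log2 below all the controls, and the change was -1.64 (SE 0.22, limma adjusted p 0.0017), or 3.11-fold lower. Cdc25b probe 2 stood well above background on 3 control arrays but none of the silenced ones. The groups overlapped there, with 5.31 on control replicate 3 and 5.37 on silenced replicate 2. The level in controls was at least 1.38 times that after silencing (measured means 6.63 and 4.71, limma adjusted p 0.0164). Here and below such a bound sets the mean of the brighter group against the lowest signal well above background on each array of the other, or the probe's own signal where that was higher, and spots of the brighter group that were not positive and significant enter its mean at their own unmasked signal. Cdc25a and Cdc25c changed by -0.55 and -0.52 on their brightest probes and were not called. The readings of Wee1 differed. Probe 1 read 10.38, 10.18, 8.64 and 10.44 on the control arrays and 10.48, 10.49, 10.41 and 9.69 on the silenced arrays, a change of 0.36 (SE 0.40, limma adjusted p 0.569), whereas probe 2 (chromosome 7, 117283161 to 117283220) read 7.02, 7.56 and 7.54 on the control arrays (no value on replicate 3) and 5.40, 6.40, 6.09 and 5.71 on the silenced arrays and fell by 1.47 (SE 0.29, limma adjusted p 0.00865). On probe 2 the groups did not overlap, and 1 of 4 silenced arrays was well above background. Cyclin F, the substrate receptor of a ubiquitin ligase, changed by 0.13 and 0.29 on its tested probes. With 1 array left out, calls were lost for Ccna2 probe 1 without control 2, 4 (-1.15 to -0.83), Ccnb1 probe 1 without control 1, 2, 4 and silenced 1, 2 (-0.67 to -0.56) and Cdc25b probe 2 without control 2, 4. The slide row block ended those of Ccna2 probe 1 (-1.04) and Ccnb1 probe 1 (-0.67), and a 75th percentile shift also ended that of Ccnb1 probe 1 (-0.47). With the authors' table and without masking, settings in which dim spots carry values, Wee1 probe 2 (-0.33 and -0.34) and Cdc25b probe 2 were not called.

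**Figure D2:**
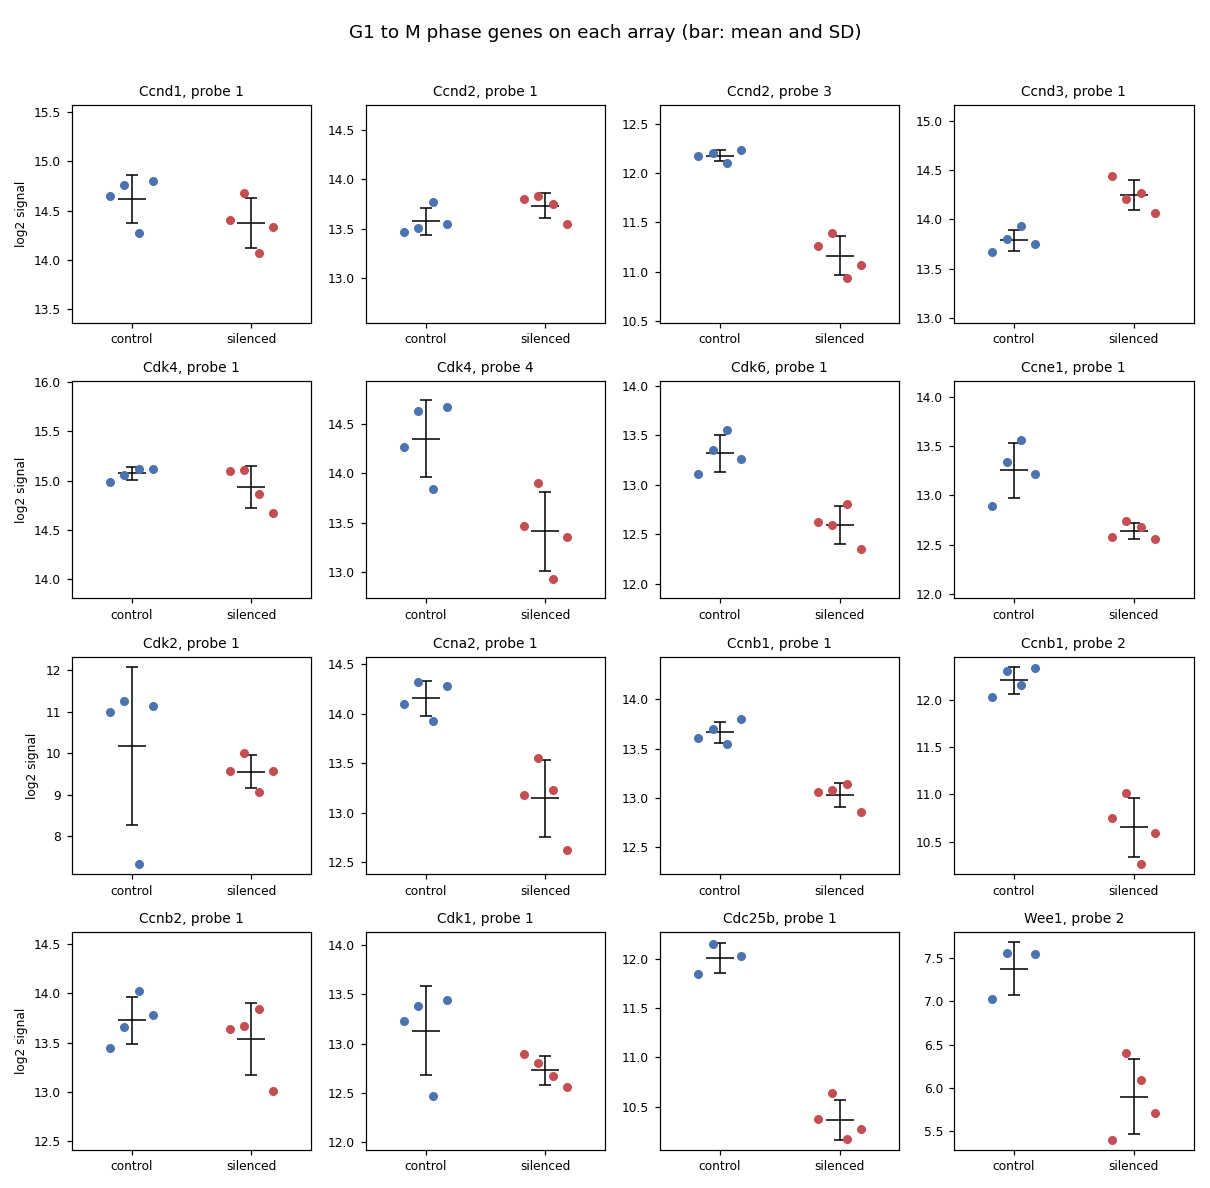
Log2 signal (vertical axis) on each of the 4 control (blue) and 4 silenced (red) arrays for 16 probes of genes that act from G1 to M phase; the black bar is the mean and its whiskers the SD, and each panel has its own axis of at least 2.2 log2 in height. Silenced points lie wholly below control points for Ccnd2 probe 3, Cdk6, Ccne1, Ccna2, Ccnb1, Cdc25b and Wee1 probe 2, and 1 control point of Cdk2 stands far below the other 3.

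Of the 5 CDK inhibitors tested, Cdkn2d rose and the other 4 did not pass the test. By brightest probe 1 gene was higher (20%, against 5.99% of all genes) and none lower (median 0.44, and 0.23 to 0.63 over the scalings). Cdkn2d, the INK4 protein p19 that blocks Cdk4 and Cdk6 (chromosome 9, 21092934 to 21092993), read 12.14, 12.26, 12.36 and 12.32 on the control arrays and 13.01, 12.98, 13.02 and 12.64 on the silenced arrays. Every silenced array lay above every control, with silenced replicate 4 the lowest of them, and the rise was 0.64 (SE 0.19, limma adjusted p 0.0332), or 1.56-fold. With single arrays left out, the call was lost for Cdkn2d probe 1 without control 1, 2, 4 and silenced 1, 2, 3 (0.60 to 0.73), and the slide row block ended it too (0.66). Cdkn1b, the inhibitor p27 that accumulates in arrested cells, read 11.19, 11.13, 11.01 and 11.39 on the control arrays and 11.79, 11.68, 11.69 and 11.33 on the silenced arrays. Its change of 0.44 (SE 0.19, limma adjusted p 0.132) was not called, but it was without silenced replicate 4 (0.54), under cyclic loess (0.58) and with the authors' table (0.62). Cdkn1c, the inhibitor p57, was dim at 6.18, 6.17, 7.21 and 5.98 on the control arrays and 6.90, 6.20, 6.91 and 5.28 on the silenced arrays and changed by -0.06 (SE 0.41, limma adjusted p 0.936). Cdkn2c, the INK4 protein p18, read 11.70, 11.90, 9.31 and 11.91 on the control arrays and 10.66, 10.87, 10.45 and 10.50 on the silenced arrays on probe 1. It was low on control replicate 3, and the change of -0.58 (SE 0.53, limma adjusted p 0.467) became -1.21 and was called without that array. Cdkn2b, the INK4 protein p15, had a tested probe that read 4.53, 5.34 and 4.03 on the control arrays (no value on replicate 1) and 15.45, 6.56 and 5.46 on the silenced arrays (no value on replicate 2). A single array, silenced replicate 1, set its computed change of 4.53 (SE 2.30, limma adjusted p 0.199). Without it the 2 remaining silenced values averaged 6.01 and the difference was 1.38. No control array exceeded background clearly on that probe and 2 silenced arrays did, which gives a level at least 3.43 times higher after silencing with all arrays, not called, and no fold without silenced replicate 1. The other Cdkn2b probe had no value on any array. Both probes of Cdkn2a, which encodes p16 and ARF, had no positive and significant spot on any of the 8 arrays.

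In the pocket protein and E2F group Rbl1, Rbl2, E2f3, E2f4 and E2f5 fell, while Rb1, E2f1 and E2f2 did not pass the test. By brightest probe 5 of 11 genes were lower and none higher (median -0.35, and -0.40 to -0.18 over the scalings). Rbl2, the pocket protein p130 that partners E2f4 in resting cells (chromosome 8, 93647120 to 93647179), read 9.65, 9.85, 9.93 and 9.82 on the control arrays and 7.76, 8.64, 7.25 and 7.14 on the silenced arrays. The highest silenced value lay below the lowest control by more than the spread within the controls, and the change of -2.11 (SE 0.32, limma adjusted p 0.00223), or 4.33-fold lower, was the largest among the genes called by their brightest probe. Rbl1, the pocket protein p107 (chromosome 2, 156972143 to 156972202), read 11.21, 11.29, 11.13 and 11.41 on the control arrays and 10.49, 10.54, 10.49 and 9.57 on the silenced arrays, without overlap. It fell by 0.99 (SE 0.25, limma adjusted p 0.0208). Its probe 2 changed by 0.05 and was not called. Its probe 3, also not called, was well above background on 3 control arrays and 0 silenced ones, with overlap between the groups (limma adjusted p 0.063). Rb1, the retinoblastoma protein itself, read 10.62, 10.78, 10.21 and 10.86 on the control arrays and 10.78, 10.74, 11 and 10.40 on the silenced arrays on probe 1. The groups overlapped with a change of 0.12 (SE 0.22, limma adjusted p 0.755), and probe 2, nearer the 5′ end, changed by -1.29 (SE 0.44, limma adjusted p 0.0603).

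E2f1, E2f2 and E2f3 are the activating E2F factors. E2f1 read 11.04, 11.27, 11.74 and 11.27 on the control arrays and 11.26, 11.11, 11.19 and 10.81 on the silenced arrays, a change of -0.24 (SE 0.22, limma adjusted p 0.476). For E2f2 the brightest probe read 12.18, 12.42, 12.11 and 12.40 on the control arrays and 12.84, 12.99, 12.89 and 12.64 on the silenced arrays. All silenced arrays lay above all controls and the change was 0.56 (SE 0.19, limma adjusted p 0.0542), while probe 2, which lies upstream in the same gene, changed by -0.15. E2f2 probe 1 was called under several alternatives, among them cyclic loess (0.73), the authors' table (0.71) and the fit without silenced replicate 4 (0.63). E2f3 (chromosome 13, 30001985 to 30003071) read 9.13, 9.37, 9.83 and 9.57 on the control arrays and 7.92, 8.14, 7.94 and 7.42 on the silenced arrays. Its silenced and control values were far apart, with a change of -1.62 (SE 0.24, limma adjusted p 0.00188), or 3.07-fold lower. The promoter of E2f3 shown above held an E2F element, as did that of Rbl1 and that of Cdk1, which was not called. E2f4 and E2f5 act with the pocket proteins to keep cell cycle genes off. E2f4 (chromosome 8, 107829156 to 107829215) read 9.54, 9.59, 9.72 and 9.46 on the control arrays and 8.70, 8.76, 8.16 and 7.90 on the silenced arrays and fell by 1.20 (SE 0.24, limma adjusted p 0.00712). E2f5 (chromosome 3, 14605676 to 14605735) read 9.09, 9.61, 9.61 and 9.45 on the control arrays and 8.74, 9.01, 8.45 and 8.35 on the silenced arrays and fell by 0.80 (SE 0.23, limma adjusted p 0.0299). Neither gene showed overlap between the groups. E2f6, a repressor that works without pocket proteins, and the atypical repressors E2f7 and E2f8 changed by 0.28, -0.35 and -0.27 on their brightest tested probes and were not called. Of the E2f7 probes, the third lay just outside the threshold with -0.89 (SE 0.29, limma adjusted p 0.0502) and the groups did not overlap there. Calls were likewise lost for E2f5 probe 1 without control 2, 3, 4 and silenced 1, 3 (-0.93 to -0.72) and Rbl1 probe 1 without control 2, 4 (-1.07 to -0.76). The methods' t-test with Benjamini-Hochberg adjustment ended those of Rbl1, Rbl2, E2f4 and E2f5. E2f5 was not called under cyclic loess (-0.52), with the authors' table (-0.51) or without masking (-0.52). The slide row block ended both calls, E2f5 probe 1 (-0.77) and Rbl1 probe 1 (-0.97).

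**Figure D3:**
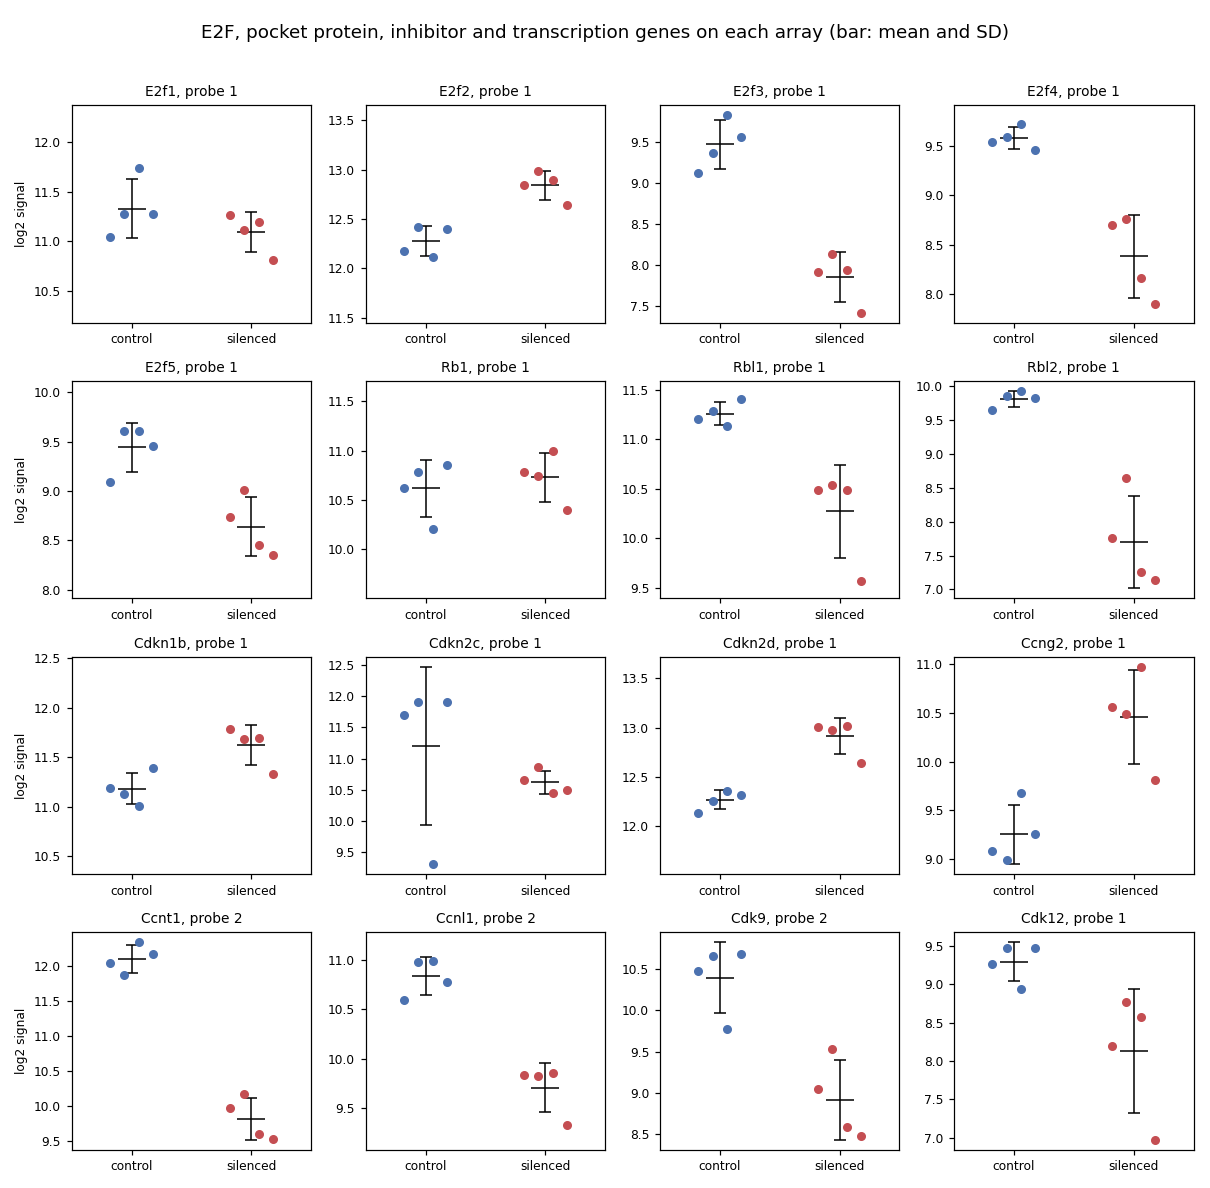
Log2 signal (vertical axis) on each of the 4 control (blue) and 4 silenced (red) arrays for 16 probes of E2F, pocket protein, inhibitor and transcriptional genes; the black bar is the mean and its whiskers the SD, and each panel has its own axis of at least 2.2 log2 in height. E2f3, E2f4, E2f5, Rbl1, Rbl2, Ccnt1, Ccnl1, Cdk9 and Cdk12 lie lower on all silenced arrays, and Cdkn2d, Ccng2 and E2f2 lie higher.

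Among the cyclins and CDKs of transcription and splicing, both L-type cyclins and Cdk12 fell by their brightest probe and Cdk19 rose (3 of 13 genes, or 23.1%, lower against 14.0% of all genes and 1, or 7.69%, higher against 5.99%, median -0.53, and -0.60 to -0.27 over the scalings). With the row of the slide as a block none of the 13 was called by its brightest probe. Over all 37 tested probes of the group, 10 were lower (27%, against 18.4% of all probes) and 2 higher (5.41%, against 4.79%). Cyclin T1 and Cdk9 form P-TEFb, the kinase that releases paused RNA polymerase II. Ccnt1 probe 2 (chromosome 15, 98373717 to 98373776) read 12.04, 11.87, 12.34 and 12.17 on the control arrays and 9.98, 10.17, 9.60 and 9.54 on the silenced arrays. Its change of -2.28 (SE 0.22, limma adjusted p 0.000435), or 4.87-fold lower, was the largest among all called member probes. Other Ccnt1 probes changed by -0.57 (limma adjusted p 0.0867) and -0.34 and were not called. Cdk9 probe 2 (chromosome 2, 32563742 to 32563801) read 10.48, 10.65, 9.77 and 10.68 on the control arrays and 9.05, 9.53, 8.59 and 8.48 on the silenced arrays and fell by 1.49 (SE 0.30, limma adjusted p 0.00769). Cdk9 probe 1 read 13.42, 13.88, 13.78 and 13.65 on the control arrays and 12.95, 13.27, 13.18 and 11.56 on the silenced arrays, also without overlap, and changed by -0.94 (SE 0.36, limma adjusted p 0.0904), with the lowest value on silenced replicate 4. Cyclin T2 was called on probe 4 alone, which read 6.62, 6.93, 6.86 and 6.75 on the control arrays and 6.20, 5.90, 6.47 and 5.94 on the silenced arrays, a change of -0.66 (SE 0.20, limma adjusted p 0.042) with 1 of 4 silenced arrays well above background, while its other 3 tested probes changed by -0.19, 0.07 and 0.11.

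Cyclins L1 and L2 pair with Cdk11 and act on splicing. For Ccnl1 3 of 5 tested probes fell. Probe 1 (chromosome 3, 65750274 to 65750333) read 10.94, 10.94, 11.31 and 11.02 on the control arrays and 10.02, 9.96 and 10.43 on the silenced arrays (no value on replicate 4). Probe 2 read 10.59, 10.98, 10.99 and 10.78 on the control arrays and 9.83, 9.82, 9.85 and 9.33 on the silenced arrays. Probe 4 (chromosome 3, 65760819 to 65760878), the one farthest towards the 5′ end, read 9.03, 9.41, 8.69 and 9.24 on the control arrays and 7.13, 7.28, 7.26 and 6.10 on the silenced arrays, with 3 of 4 silenced arrays well above background. None of the 3 showed overlap, and the changes were -0.92 (SE 0.23, limma adjusted p 0.0207), -1.13 (SE 0.21, limma adjusted p 0.00497) and -2.15 (SE 0.30, limma adjusted p 0.00165). Probes 3 and 5, which lie between, were not called. Probe 3 changed by -0.21, and probe 5 was well above background on 1 control array and none of the silenced ones. Ccnl2 probe 2, the brightest with values (chromosome 4, 155198073 to 155198132), read 12.62, 12.71, 12.97 and 12.95 on the control arrays and 12.12, 12.19, 12.02 and 11.62 on the silenced arrays and fell by 0.82 (SE 0.21, limma adjusted p 0.0187), without overlap. Its probes 3 and 4 changed by -0.56 and 0.37. Cdk12 and Cdk13 phosphorylate elongating polymerase with cyclin K. Cdk12 (chromosome 11, 98112237 to 98112296) read 9.27, 9.48, 8.94 and 9.48 on the control arrays and 8.19, 8.77, 8.58 and 6.97 on the silenced arrays. Silenced replicate 4 was far below the other 3, and the change was -1.17 (SE 0.37, limma adjusted p 0.0478). The other tested Cdk12 probe, dim and well above background on 2 arrays of each group, changed by 0.07 (limma adjusted p 0.947). Cdk13 changed by -0.79 and cyclin K by 0.03, neither called. Cdk7 and cyclin H, the kinase pair of TFIIH that also activates other CDKs, changed by -0.53 and 0.02 and were not called.

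Cdk8 and Cdk19 are the alternative kinases of the Mediator complex and bind cyclin C. Cdk8 probe 1 read 12.46, 12.50, 11.15 and 12.64 on the control arrays and 12.27, 12.48, 11.87 and 11.90 on the silenced arrays, a change of -0.06 (SE 0.34, limma adjusted p 0.927). Probe 2 (chromosome 5, 147043316 to 147043375) read 7.12, 7.64, 6.92 and 7.57 on the control arrays and 6.28, 6.33, 6.84 and 5.60 on the silenced arrays and fell by 1.05 (SE 0.29, limma adjusted p 0.0295), with 2 of 4 silenced arrays well above background. Cdk19 was the 1 gene of the 60 with probes called in both directions. Probe 1 (chromosome 10, 40201853 to 40201912) read 9.50, 9.72, 9.62 and 9.86 on the control arrays and 10.95, 10.63, 11.16 and 10.07 on the silenced arrays, a rise of 1.03 (SE 0.26, limma adjusted p 0.0189). Probe 2 (chromosome 10, 40201715 to 40201774) read 9.12, 9.38, 8.89 and 9.51 on the control arrays and 10.23, 10, 10.23 and 9.48 on the silenced arrays, a rise of 0.76 (SE 0.24, limma adjusted p 0.0484) with overlap between the groups. Probe 3 (chromosome 10, 40202842 to 40202901) read 9.09, 9.49, 9.44 and 9.48 on the control arrays and 8.47, 9.06, 8.29 and 8.0 on the silenced arrays, a change of -0.92 (SE 0.25, limma adjusted p 0.0278). Probe 3 lies beyond probe 1 in the direction of transcription, and probe 4, on the other side, changed by -0.83 and was not called. Cyclin C changed by 0.34 on its brightest probe and was not called on any. With 1 array left out, calls were lost for Ccnl1 probe 1 without control 2, 4 and silenced 1, 2 (-1.04 to -0.82), Ccnl2 probe 2 without control 2, 4 (-0.90 to -0.70), Ccnt2 probe 4 without control 1, 2, 3, 4 and silenced 1, 2 (-0.78 to -0.59), Cdk12 probe 1 without control 1, 2, 4 and silenced 1, 3 (-1.38 to -0.79), Cdk8 probe 2 without control 1, 2, 4 and silenced 1, 2 (-1.24 to -0.83), Cdk19 probe 1 without control 1, 2 and silenced 1 (0.86 to 1.25), Cdk19 probe 2 without control 1, 2, 3, 4 and silenced 1, 2, 3 (0.64 to 0.94) and Cdk19 probe 3 without control 2, 4 and silenced 1, 3 (-1.12 to -0.78). All 8 of these calls also ended with the slide row block, namely Ccnl1 probe 1 (-0.94), Ccnl2 probe 2 (-0.83), Ccnt2 probe 4 (-0.62), Cdk12 probe 1 (-1.21), Cdk8 probe 2 (-1.13), Cdk19 probe 1 (1.05), Cdk19 probe 2 (0.75) and Cdk19 probe 3 (-0.95). Ccnt2 probe 4 was also not called under cyclic loess (-0.35) or normexp (-0.35). With the authors' table and without masking the calls of Ccnt2 probe 4 (-0.31 and -0.32) and Cdk19 probe 3 (-0.62 and -0.63) ended, and Ccnl1 probe 1 changed by -0.33 with the authors' table and was not called there.

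Of the remaining cyclins and CDKs, Ccng2 and Cdk20 rose and Cdk5, Cdk16 and Ccnj fell by brightest probe (11 genes, median -0.22, and -0.28 to 0 over the scalings). Ccng2 encodes cyclin G2, which is known from cells leaving the cycle rather than from driving it. Its probe 1 (chromosome 5, 93704874 to 93704933) read 9.09, 8.99, 9.68 and 9.26 on the control arrays and 10.56, 10.49, 10.97 and 9.81 on the silenced arrays. All silenced arrays lay above all controls, with a rise of 1.20 (SE 0.28, limma adjusted p 0.0138), or 2.3-fold, while no array had probe 2 well above background. Cdk20, first described as a cell cycle-related kinase (chromosome 13, 64540969 to 64541028), read 8.70, 8.84, 9.80 and 9.18 on the control arrays and 10.47, 10.15, 10.69 and 9.68 on the silenced arrays. The groups overlapped by the high control replicate 3, and the rise was 1.12 (SE 0.31, limma adjusted p 0.0274). Cdk16 (chromosome X, 20274073 to 20274287), a kinase activated by cyclin Y, read 9.40, 9.96, 9.50 and 9.78 on the control arrays and 8.48, 8.58, 7.92 and 7.94 on the silenced arrays. It fell by 1.43 (SE 0.24, limma adjusted p 0.0033) without overlap. Of the 3 tested probes of its relative Cdk17, probe 3 fell and read 6.78, 7.33 and 7.25 on the control arrays (no value on replicate 3) and 5.71, 6.0 and 5.05 on the silenced arrays (no value on replicate 4). It stood well above background on 3 control arrays but none of the silenced ones, so the level in controls was at least 1.09 times higher (limma adjusted p 0.0129), and probes 1 and 2 changed by -0.34 and 0.14. Without control replicate 3 the change of Cdk17 probe 1 was -0.97 and was called.

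Cdk5, which is activated by p35 rather than by a cyclin, again gave 2 readings. Probe 1 (chromosome 5, 23925603 to 23926077) read 10.60, 10.90, 11.46 and 10.96 on the control arrays and 10.22, 10.45, 9.79 and 9.84 on the silenced arrays and fell by 0.91 (SE 0.25, limma adjusted p 0.0273). Probe 2 (chromosome 5, 23924068 to 23924127), at the 3′ end and with a polyadenylation signal, read 8.95, 9.22, 9.92 and 9.43 on the control arrays and 10.20, 9.98, 10.75 and 9.56 on the silenced arrays and changed by 0.74 (SE 0.30, limma adjusted p 0.106). Cdk10 behaved alike, since probe 1 read 11.28, 11.59, 11.72 and 11.66 on the control arrays and 11.72, 11.65, 11.73 and 11.38 on the silenced arrays and probe 2 (chromosome 8, 125754558 to 125754617) read 8.74, 9.13, 8.50 and 9.11 on the control arrays and 7.46, 7.21, 7.21 and 6.61 on the silenced arrays. The first changed by 0.06 and the second fell by 1.74 (SE 0.25, limma adjusted p 0.00171), with all silenced values below all controls. Cyclin J (Ccnj, chromosome 19, 40922440 to 40922499) read 7.54, 7.13, 6.19 and 7.61 on the control arrays and 5.71, 6.14, 5.28 and 5.10 on the silenced arrays. It stood well above background on 3 control arrays but none of the silenced ones, with a level at least 1.9 times higher in controls (limma adjusted p 0.0128). Cyclin I had no called probe. Its probe 1 changed by 0.60 (SE 0.22, limma adjusted p 0.0821) without overlap and probe 2 by -1.19 (SE 0.45, limma adjusted p 0.0832). Cdk14, Cdk15 and Cdk18 changed by -0.27, 0.14 and -0.22 on their brightest tested probes. With 1 array left out, calls were lost for Cdk20 probe 1 without control 1, 2, 4 and silenced 1, 2, 3 (0.96 to 1.33), Cdk5 probe 1 without control 2, 4 and silenced 1, 3 (-1.05 to -0.75), Cdk17 probe 3 without control 2, 4 and Ccng2 probe 1 without control 2 (1.02 to 1.44). The slide row block ended those of Cdk20 probe 1 (1.18), Cdk5 probe 1 (-0.85) and Ccng2 probe 1 (1.24). With the authors' table and without masking, Ccnj probe 1, Cdk17 probe 3 and Cdk5 probe 1 (-0.70 and -0.70) were not called.

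Probes of the same gene often gave different readings. Of 34 genes with 2 or more tested probes, 19 had some probes called and some not, 1 (Cdc25b) had all of them called and 14 had none. The matching counts over all genes of the array are not given here, so these numbers do not set the members apart. The probe nearest the 5′ end was compared with the probe nearest the 3′ end of the same gene. Their log2 difference on each array cancels a shift of the gene or array that is equal for both probes. An effect that depends on signal level would not cancel where the probes differ in brightness. The 5′ probe was lower relative to the 3′ probe in silenced cells for 23 of 34 genes (67.6%), against 70.4% of the 6263 genes of the array with 2 such probes. The median difference between the changes was -0.53 for the members and -0.43 for all. For 10 member genes (29.4%) every silenced array lay below every control in this difference, against 31.7% of all genes, and for 1 (2.94%) above, against 8.24%. The shares with the 5′ probe lower were close to those of the whole array, while the share above was smaller and rests on 1 member gene. For cyclin B1, whose outer probes are 4761 bases apart, the 5′ probe minus the 3′ probe gave 1.40 ± 0.22 (SD, n = 4) in controls and -0.11 ± 0.36 (SD, n = 4) after silencing. For Cdk5 it went from 1.60 ± 0.08 (SD, n = 4) to -0.05 ± 0.64 (SD, n = 4) over 1535 bases, and for cyclin D2 from -0.78 ± 0.34 (SD, n = 4) to -1.85 ± 0.47 (SD, n = 4) over 23284. Cdk4 gave -0.03 ± 0.35 (SD, n = 4) and -0.84 ± 0.24 (SD, n = 4). Cyclin A2 went the other way, from -1.68 ± 0.28 (SD, n = 4) to -0.63 ± 0.39 (SD, n = 4), and was the 1 member gene with every silenced array above every control.

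**Figure D4:**
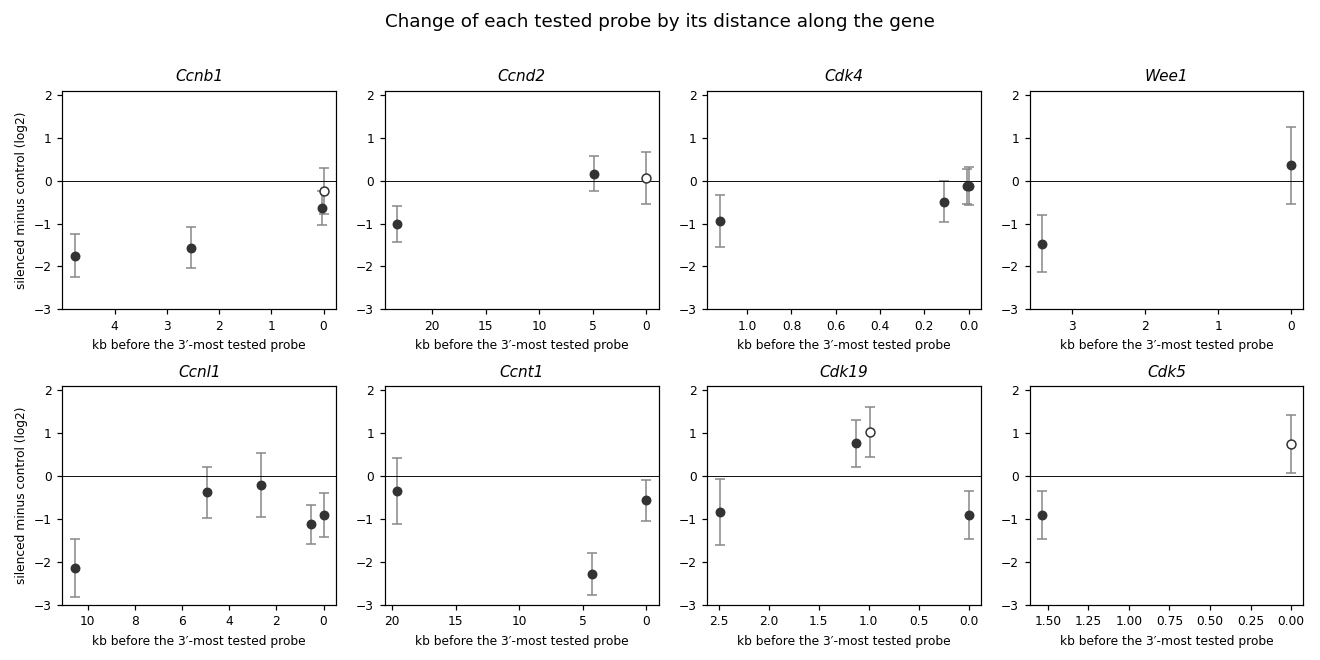
Change after silencing (silenced minus control, log2, vertical axis) of each tested probe of 8 genes against its genomic distance in kb from the tested probe nearest the 3′ end (horizontal axis, 5′ to the left); bars are 95% confidence intervals and open circles are probes that hold a polyadenylation signal. Ccnb1, Ccnd2, Cdk4, Wee1 and Cdk5 lie lower towards the 5′ end, whereas Ccnt1 and Cdk19 follow no single direction.

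Probes that hold a polyadenylation signal can mark the 3′ ends of transcripts. Of the 115 tested member probes 14 held one, and 2 of them were called higher (14.3%), against 10.2% of such probes on the whole array, and none lower (0%), against 6.64%. Their median change was 0.18, and 0.17 over all such probes. The 101 member probes without a signal had a median of -0.38, with 30 called lower (29.7%), against 20.4% of such probes on the whole array, and 3 higher (2.97%), against 3.84%. When each gene was read by its probe nearest the 3′ end, 14 of 57 genes were lower (24.6%), against 14.2% of all genes read so, and 3 higher (5.26%), against 5.91%, with medians of -0.24 and -0.09. By the mean of the tested probes of a gene 12 were lower (21.1%), against 14.3% of all genes, and 2 higher (3.51%), against 4.24%, with medians of -0.42 and -0.17. Genes that a choice of probe does not touch are those with a single tested probe, among them E2f3, E2f4, E2f5, Rbl2, Cdk16, Ccnj, Cdk20 and Cdkn2d, which have no second tested probe to set beside the first.

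**Figure D5:**
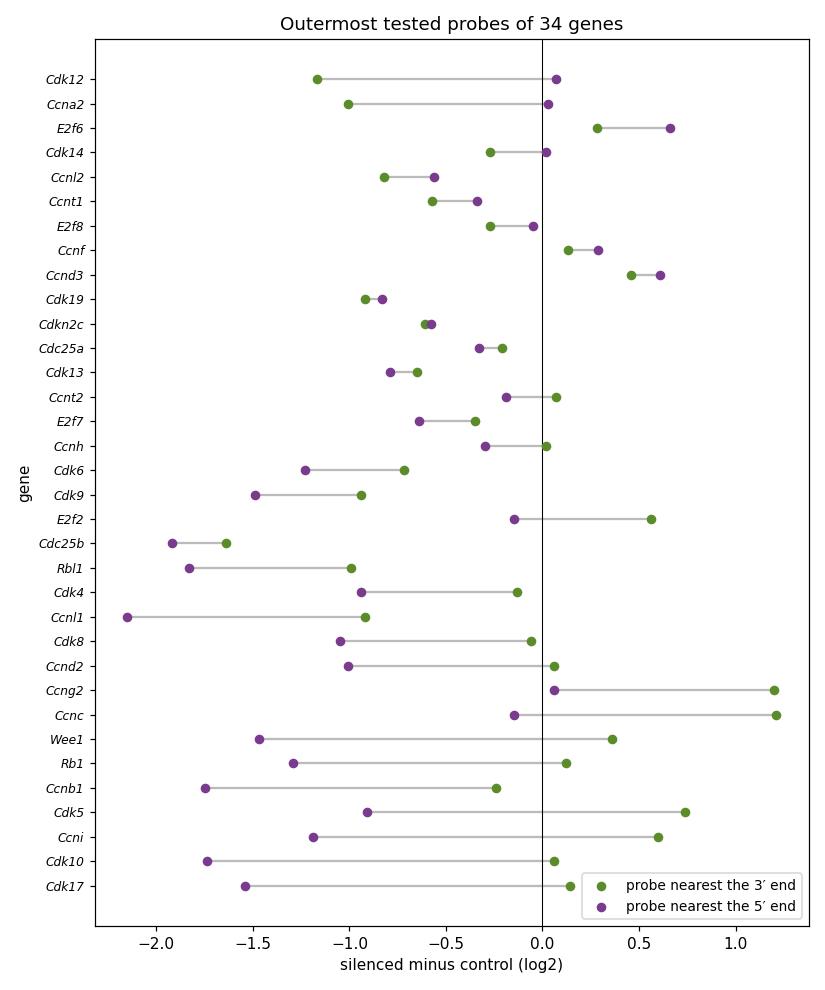
Change after silencing (silenced minus control, log2, horizontal axis) of the tested probe nearest the 5′ end (purple) and nearest the 3′ end (green) for 34 genes, ordered by the difference between them on the same arrays. The purple point lies left of the green one for 23 genes, and Ccnl1, Cdc25b, Rbl1 and Cdk9 are among the genes with both points left of 0.

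A list of 48 further genes that work with these kinases and factors was read in the same way. By brightest probe 46 were tested, 6 were lower (13%), against 14.0% of all genes, and 1 higher (2.17%), against 5.99%, with a median change of -0.36, against -0.09 over all genes. Fzr1, the Cdh1 activator of the anaphase-promoting complex, read 14.03, 14.20, 14.85 and 14.27 on the control arrays and 12.71, 13.09, 12.43 and 13 on the silenced arrays, a change of -1.53 (SE 0.25, limma adjusted p 0.00287). Fbxo5, its inhibitor Emi1, read 13.11, 13.54, 13.22 and 13.30 on the control arrays and 12.60, 12.49, 12.51 and 12.29 on the silenced arrays, a change of -0.82 (SE 0.19, limma adjusted p 0.0128). Cul1, the scaffold of SCF ubiquitin ligases, read 10.80, 10.94, 11.24 and 10.95 on the control arrays and 9.92, 10.12, 9.66 and 9.66 on the silenced arrays, a change of -1.14 (SE 0.20, limma adjusted p 0.00433). Cks2, a small docking subunit of CDKs, fell by 0.82 (SE 0.23, limma adjusted p 0.0295), Mcm2 of the replicative helicase by 0.75 (SE 0.19, limma adjusted p 0.0209) and Med12 of the Mediator kinase module by 1.0 (SE 0.20, limma adjusted p 0.00724). Cdk5rap2, a centrosomal protein, rose by 0.60 (SE 0.19, limma adjusted p 0.049). The other 39 genes were not called by their brightest probe, and 10 of them had another probe that was called. That last count was not set against all genes of the array. Over all 80 tested probes of the list, 20 were lower (25%), against 18.4% of all probes, and 3 higher (3.75%), against 4.79%. The authors' table gave 5 higher and 6 lower of these genes, and leaving out control replicate 2 gave 0 and 3. Of the genes left out of the group, Ccng1 rose by 0.94 (limma adjusted p 0.0307) and the brightest Cdkn1a probe changed by -0.04 (limma adjusted p 0.917). Dimmer Cdkn1a probes were at least 2.53 times higher after silencing at one position (29227986 to 29228045) and at least 1.12 times higher in controls at another (29235299 to 29235358, chromosome 17).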

How the data were processed

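Total RNA of 4 negative control and 4 Pvt1-silenced C2C12 cultures was labelled with Cy3 and hybridised to one-colour Agilent arrays. The scanner files hold, as deposited by the authors, the background-subtracted intensity of each spot and its flags. Per the labels the images were read with Feature Extraction 10.7.3.1, and per the file headers with 12.0.0.7. A series table of intensity values processed by the authors served only as an alternative.

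Intensity values were set to missing where a spot was not positive and significant or carried an outlier flag, quantile-normalised over the 8 arrays on the log2 scale, and averaged over spots of a probe. The test was limma 3.58.1 (R 4.3.3) on probes with a value on 3 or more of the 4 arrays of both groups, with Benjamini-Hochberg adjustment over all of them and a threshold of 0.05. A gene was represented by its tested probe of highest mean signal. The number of arrays, 4 a group, limits the precision. Genes were named with values where a probe was called or where they belonged to a core set of G1, mitotic, inhibitor, pocket protein and E2F genes, and the 48 partner genes only where called. The members, the lists and the naming rule were chosen with earlier results of these data known. Probe positions are those of the array files (mm9), and promoters came from RefSeq (GRCm38.p6). Alternatives changed the normalisation, the background correction, the masking, the source of values, the test, the blocks, the probe of a gene and the arrays used. Exon or UTR position of the probes was not analysed here.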

Additional observations from a re-analysis of the deposited data

Results flagged for a closer look

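In 12 of 109 groups of 4 values a single array lay apart from the other 3 by the gap that Dixon's test allows in about 1 of 20 groups by chance. Control replicate 3 was that array in 6 of them, silenced replicate 4 in 5 and control replicate 1 in 1. On control replicate 3 the log2 signal of Cdk2 was 7.33, against 10.99 to 11.26 on the other 3 control arrays. Cdkn2c there read 9.31, against 11.70 to 11.91 on the other 3. Cdk17 probe 1 gave 7.95, against 10.30 to 10.60 on the other 3, Cdk8 probe 1 11.15, against 12.46 to 12.64 on the other 3 and Wee1 probe 1 8.64, against 10.18 to 10.44 on the other 3. Only Cdkn1c was higher on that array than on the other controls among these 6, at 7.21, against 5.98 to 6.18 on the other 3. Silenced replicate 4 was the low one for Cdkn2d (12.64, against 12.98 to 13.02 on the other 3), Rbl1 probe 1 (9.57, against 10.49 to 10.54 on the other 3), Wee1 probe 1 (9.69, against 10.41 to 10.49 on the other 3), Ccnl1 probe 2 (9.33, against 9.82 to 9.85 on the other 3) and Ccnl1 probe 4 (6.10, against 7.13 to 7.28 on the other 3). For Cdk19 probe 3 control replicate 1 read 9.09, against 9.44 to 9.49 on the other 3. Control replicate 3 had the lowest correlation with its group (0.964) and silenced replicate 4 the fewest positive and significant spots (51.6%), and their part in these gaps was not tested. With both arrays left out, an alternative chosen after seeing the data, 12 member probes were called higher and 43 lower. Of all tested probes 40.9% were called in that fit.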

How the results depend on the processing

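The 30 lower and 5 higher calls kept their direction under every alternative in which they could be tested (8 of the 35 probes lacked values for 1 or 2 of the 21), and 11 lost their call under none but the Bonferroni threshold, of which 1, Cdc25b probe 1, could not be tested among probes with all 8 values. Main counts were 35 member probes, 19 member genes and 7 partner genes called, with 23.2% of all tested probes called. The row of the slide as a block gave 18, 6 and 3, with 10.8% of all tested probes called. The Welch t-test after Benjamini-Hochberg adjustment gave 18 probes and 9 genes, with 11.9% of all tested probes called. With that t-test and a Bonferroni threshold 0 members and 0 partner genes were called, and the Pvt1 change of -2.86 did not pass. The study's methods describe a t-test with permutation p-values for fast against slow fibres, and that test was not run here. Leaving out 1 array gave 15 to 43 member probes, 6 to 23 member genes and 3 to 10 partner genes, with 15 probes and 6 genes without control replicate 2, 43 probes and 23 genes without control replicate 3 and, equally, without silenced replicate 4, and 10 partner genes without silenced replicate 4. Of all tested probes 13% were called without control replicate 2, 25.7% without control replicate 3 and 29.9% without silenced replicate 4. Partner genes numbered 11 with the authors' table, 11 without masking, 11 with spots not well above background masked, 13 with a robust prior and, without control replicate 3 and silenced replicate 4 together, 16. In that last fit 55 of 116 tested member probes were called, and 40.9% of all tested probes. The cause of these moves was not tested. The replicate number as a block gave 21 probes, 10 genes and 3 partner genes, with 17.5% of all tested probes called. Same-numbered arrays deviated together with correlations of -0.04, 0.19, 0.22 and 0.06, of which 2 exceeded 0.1, and not every sample matched its own number best, so the samples share only a number. Well above background in every array of 1 group and in none of the other were 0 member probes, and 0 to 4 when 1 array was left out (4 without control replicate 3, 1 without silenced replicate 3). Over all probes cyclic loess called 5416 higher and 5258 lower, against 1373 and 5269. Of the 115 tested member probes 89 were well above background on all 8 arrays, and the remainder rest partly on dim spots.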
